A study of Mus musculus with 8 samples.

Results

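A set of 9 genes that encode transcription factors of myeloid cells were followed in injured and control mouse spinal cord: Spi1, Cebpa, Cebpb, Cebpd, Runx1, Irf5, Ikzf1, Bhlhe40 and Mitf. They were found on the arrays by gene symbol, or by the symbol RefSeq gives the transcript a probe was designed for. This took 9 of the 20468 mRNA genes on the arrays and 21 of their 47074 mRNA probes, 12 of Agilent's catalogue and 9 custom probes.

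The injured group was 4 female mice aged 8 weeks with a contusion of the spinal cord, and the control group was 4 female mice of the same age. One 1-colour (Cy3) array was run for each mouse on total RNA of the T9-T10 segments, and no strain, transgene or drug is given in the labels. The labels conflict on 2 points. By their titles all contusion samples were taken at 3 days, but by their descriptions replicates 1, 2, 3 and 4 were taken at 3, 4, 5 and 6 days. The controls are sham animals in the design text and normal cord in their descriptions. Arrays lay on 2 slides. Slide 1 held contusion 1 with controls 2, 3 and 4, and slide 2 held the other 3 contusion arrays with control 1. Per array, 72.9% to 75.4% of 150305 non-control probes were well above background, and arrays of one group correlated at 0.988 to 0.992. A level below is a probe's log2 processed intensity minus the 75th percentile of its array, so a level of 0 is the brightness of that percentile. A difference is the mean level in contusion minus that in control, on the log2 scale. A probe or gene was called where limma's adjusted p was under 0.05.

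PU.1, the product of Spi1, is an ETS-family factor that macrophages, microglia and granulocytes need in order to form, and it opens enhancers together with C/EBP and RUNX factors. C/EBP proteins are basic leucine zipper factors: C/EBPα drives granulocyte and monocyte commitment, while C/EBPβ and C/EBPδ are induced by cytokines and bacterial products. RUNX1 binds DNA with its partner CBFβ, IRF5 acts downstream of Toll-like receptors on cytokine genes, Ikaros (Ikzf1) is a zinc finger factor of blood cells, BHLHE40 is a basic helix-loop-helix repressor, and MITF is a leucine zipper factor of melanocytes, osteoclasts and mast cells with relatives that control lysosomal genes.

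Several of the comparisons below turn on which stretch of a transcript a probe reads, so 8 probes are shown first, 5′ to 3′ and as deposited apart from case. Catalogue probes are given with the position of the array annotation in mouse build mm9, and a position longer than the probe means that the probe crosses at least 1 intron. The Spi1 catalogue probe lay at chr2:90939665-90953452, which spans 13788 bases, and that of Runx1 at chr16:92614003-92644455, which spans 30453 bases. Capitals in the Runx1 catalogue probe mark the 48 bases it shares with the probe of a circular RNA from the same locus. Custom probes have no position in the files, and 30 bases of each are given. The Cebpa probe lay at chr7:35905361-35905420 and the Cebpb probe at chr2:167515309-167515368, and these 2 are shown because their genes encode related proteins. The Ikzf1 probe at chr11:11658319-11661278 and the Mitf probe at chr6:97956187-97960443 also cross introns.
Spi1 catalogue probe: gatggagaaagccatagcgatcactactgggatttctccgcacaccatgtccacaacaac
Spi1 custom probe: taaaaagctcttcctccccatcccctcatt
Runx1 catalogue probe: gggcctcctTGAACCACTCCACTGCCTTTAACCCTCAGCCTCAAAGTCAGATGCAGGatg
Runx1 custom probe: ctgtaactccaatattcaaacccatgtgaa
Cebpa catalogue probe: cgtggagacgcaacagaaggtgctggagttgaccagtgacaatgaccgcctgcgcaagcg
Cebpb catalogue probe: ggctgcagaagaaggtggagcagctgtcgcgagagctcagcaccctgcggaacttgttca
Ikzf1 catalogue probe: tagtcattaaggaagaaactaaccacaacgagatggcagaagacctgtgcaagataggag
Mitf catalogue probe: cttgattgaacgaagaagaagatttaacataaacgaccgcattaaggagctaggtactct
With a minimum stretch of 20 bases, the other member probes shared none with any other probe on the arrays, with 1 exception at Cebpd that is described with its values.

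The factors' mRNA signal was higher in contusion at 14 of the 21 probes and lower at 0 (limma; 0 also at an unadjusted p under 0.05), and 7 probes were not called. Over all mRNA probes tested, 26.5% were called higher and 27.2% lower. The 14 differences ran from 1.49 to 2.64. Every contusion array was above every control array at 14 of the 21 probes, against 26.7% of all mRNA probes tested. These were the same 14 probes, and over all mRNA probes this share is close to that called higher, so it is no separate support. All 21 probes were well above background on all 8 arrays. By gene, every probe of Cebpa, Cebpb, Cebpd, Irf5 and Ikzf1 was called higher, the probes of Spi1 and Runx1 disagreed, and no probe of Bhlhe40 or Mitf was called. With the brightest probe of a gene as its value, 5 of 9 genes were called higher, where 25.8% of mRNAs were called higher and 25.4% lower. With the mean of a gene's probes, 7 of 9 were called, Spi1 at 1.13 (adjusted p = 0.00448) and Runx1 at 1.63 (adjusted p = 0.000637).

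**Figure D1:**
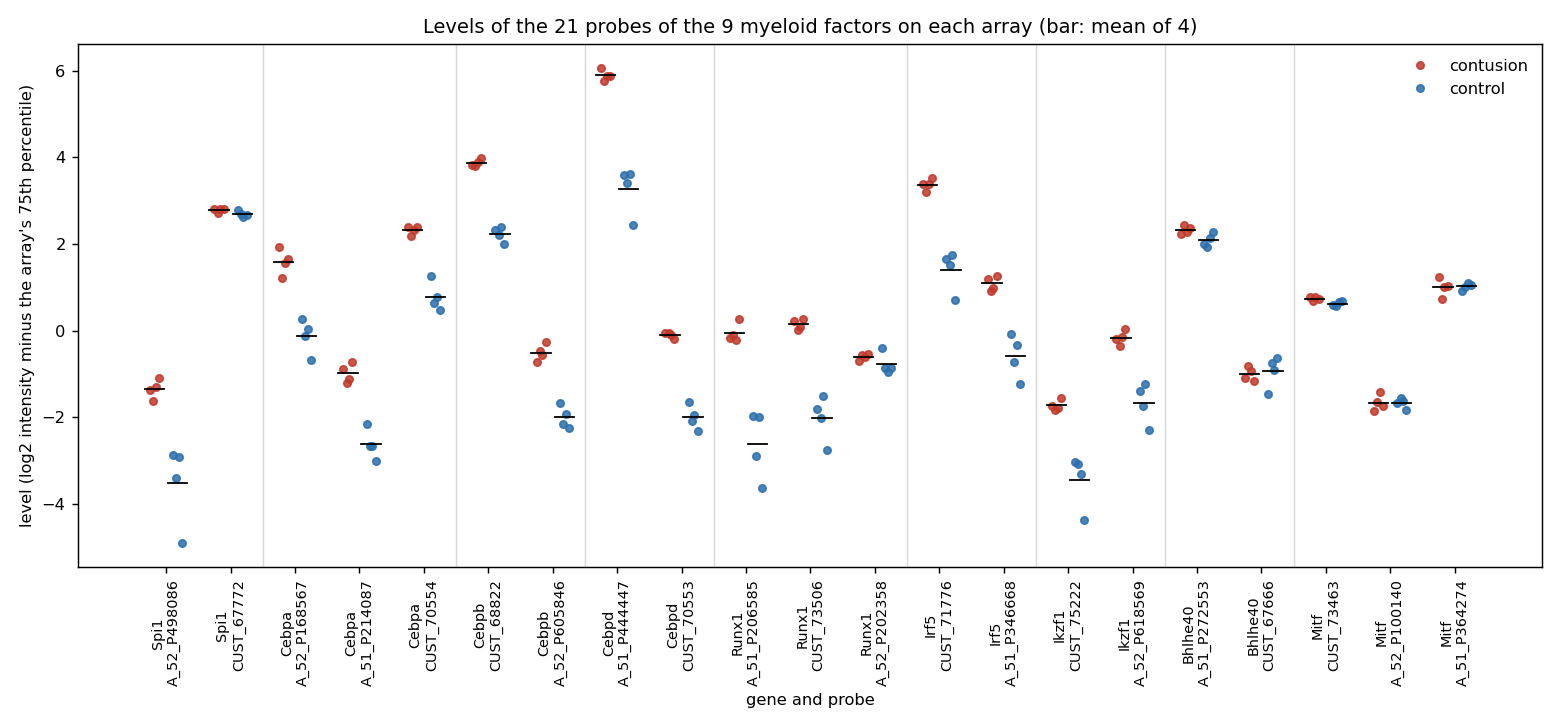
Levels of the 21 probes of the 9 factors on each array, as log2 intensity minus the array's 75th percentile, with contusion in red and control in blue and a bar at each mean of 4 arrays. At 14 probes every contusion array sat above every control array, while the groups overlapped at 1 Spi1 probe, 1 Runx1 probe and the probes of Bhlhe40 and Mitf.

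The 2 probes of Spi1 gave different answers. At the catalogue probe that crosses introns, the level was -1.38, -1.63, -1.30 and -1.09 on contusion arrays 1 to 4, against -2.87, -3.40, -2.93 and -4.90 on control arrays 1 to 4. Every contusion array was above every control array, and control 4 was lowest. The difference was 2.17 ± 0.42 (SE, limma, n = 4 arrays a group), an intensity 4.51-fold as high, with an adjusted p of 0.00357. At the custom probe, the level was 2.82, 2.73, 2.80 and 2.81 on the contusion arrays, against 2.80, 2.70, 2.63 and 2.67 on the control arrays. These groups overlapped, with a difference of 0.09 ± 0.06 and an adjusted p of 0.269. The responses of the 2 probes differed by 2.08 ± 0.47. The exact two-sided permutation test over the 8 arrays gave p = 0.0286, the smallest p that its 70 regroupings can give. This became 0.107 after adjustment over the 15 within-gene probe pairs of the 9 genes. With that smallest p, no pair could fall under 0.05 after adjustment unless most of the 15 reached it, whatever the size of its own difference.

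All 7 probes of the C/EBP genes were called higher. The custom probe of Cebpb had levels of 3.83, 3.81, 3.90 and 3.99 in contusion, against 2.33, 2.20, 2.39 and 1.99 in control. The groups were well apart, each with a spread far under the gap, and the difference was 1.65 ± 0.10 (adjusted p = 5.37e-05). Its catalogue probe gave 1.49 ± 0.15. For Cebpa, the custom probe had levels of 2.39, 2.18, 2.33 and 2.41 in contusion, against 1.26, 0.64, 0.77 and 0.48 in control. Every contusion array was higher, and the difference was 1.54 ± 0.16 (adjusted p = 0.000196). The catalogue probes of Cebpa gave 1.72 ± 0.22 and 1.64 ± 0.18, so its 3 probes lay within 0.17 of each other.

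Cebpd, which cytokines induce in many cell types and not in myeloid cells alone, showed the highest difference of the 21 probes. Its catalogue probe had levels of 6.07, 5.77, 5.88 and 5.89 in contusion, against 3.6, 3.42, 3.61 and 2.43 in control. Control 4 lay below the other 3 controls, and the nearest contusion and control arrays were 2.16 apart. The difference was 2.64 ± 0.25, an intensity 6.22-fold as high (adjusted p = 0.000159). Its custom probe gave 1.90 ± 0.13 (adjusted p = 6.94e-05), with levels of -0.05, -0.06, -0.09 and -0.19 in contusion and -1.65, -2.09, -1.94 and -2.31 in control. That probe shares 52 bases, on the opposite strand, with a probe of Spidr, a DNA repair gene whose RefSeq locus overlaps that of Cebpd. The Spidr probe was itself higher in contusion, by 2.61 ± 0.14 (adjusted p = 5.04e-05), and the part of the shared stretch in either value was not tested.

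Runx1 was read by 3 probes, of which 2 were called. The catalogue probe listed for all 4 of the gene's RefSeq transcripts had levels of -0.17, -0.10, -0.21 and 0.26 in contusion, against -1.97, -2.90, -2.0 and -3.62 in control. The groups did not overlap and the difference was 2.57 ± 0.35 (adjusted p = 0.000705), while the custom probe gave 2.17 ± 0.24 (adjusted p = 0.00025). The third probe, the intron-crossing one shown above, is listed for 2 of the 4 transcripts. Its levels were -0.69, -0.57, -0.61 and -0.53 in contusion, against -0.40, -0.85, -0.95 and -0.86 in control. Control 1 was above all contusion arrays, and the difference of 0.17 ± 0.12 was not called (adjusted p = 0.303). Without control 1 the difference at this probe was 0.29 and it was called (adjusted p = 0.0142 with the probe as the gene's value). The response of this probe was 2.40 ± 0.37 below that of the probe for all transcripts and 2.01 ± 0.29 below that of the custom probe (exact permutation p = 0.0286 and adjusted p = 0.107 for each, with the limit given for Spi1).

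Irf5 rose at both of its probes. The custom probe had levels of 3.38, 3.20, 3.39 and 3.53 in contusion, against 1.67, 1.51, 1.74 and 0.72 in control, with control 4 lowest and no overlap. The difference was 1.97 ± 0.22 (adjusted p = 0.000257), and that of the catalogue probe was 1.68 ± 0.23 (adjusted p = 0.000734). Ikzf1 also rose at both probes. Its catalogue probe had levels of -0.18, -0.35, -0.14 and 0.03 in contusion, against -1.39, -1.73, -1.22 and -2.30 in control. Here the nearest arrays of the 2 groups were 0.87 apart, the smallest gap among the 14 called probes. The difference was 1.5 ± 0.22 (adjusted p = 0.00094), and the custom probe gave 1.73 ± 0.28 (adjusted p = 0.00145).

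Bhlhe40 and Mitf were not called at any probe. The catalogue probe of Bhlhe40 had levels of 2.23, 2.43, 2.29 and 2.36 in contusion, against 2.00, 1.94, 2.14 and 2.27 in control. Control 4 lay within the contusion range and the other 3 controls below it, and the difference was 0.24 ± 0.09 (adjusted p = 0.0587). Without control 4 it was 0.30 and was called (adjusted p = 0.0311 with the probe as the gene's value), while the custom probe gave -0.07 ± 0.18 (adjusted p = 0.791). The catalogue probes of Mitf gave -0.01 ± 0.11 (adjusted p = 0.948) and 0.00 ± 0.11 (adjusted p = 0.998), and its custom probe 0.12 ± 0.06 (adjusted p = 0.135). At the brightest Mitf probe the levels were 1.24, 0.74, 1.02 and 1.04 in contusion, against 0.91, 1.01, 1.11 and 1.06 in control, so the contusion arrays lay on both sides of the controls.

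**Figure D2:**
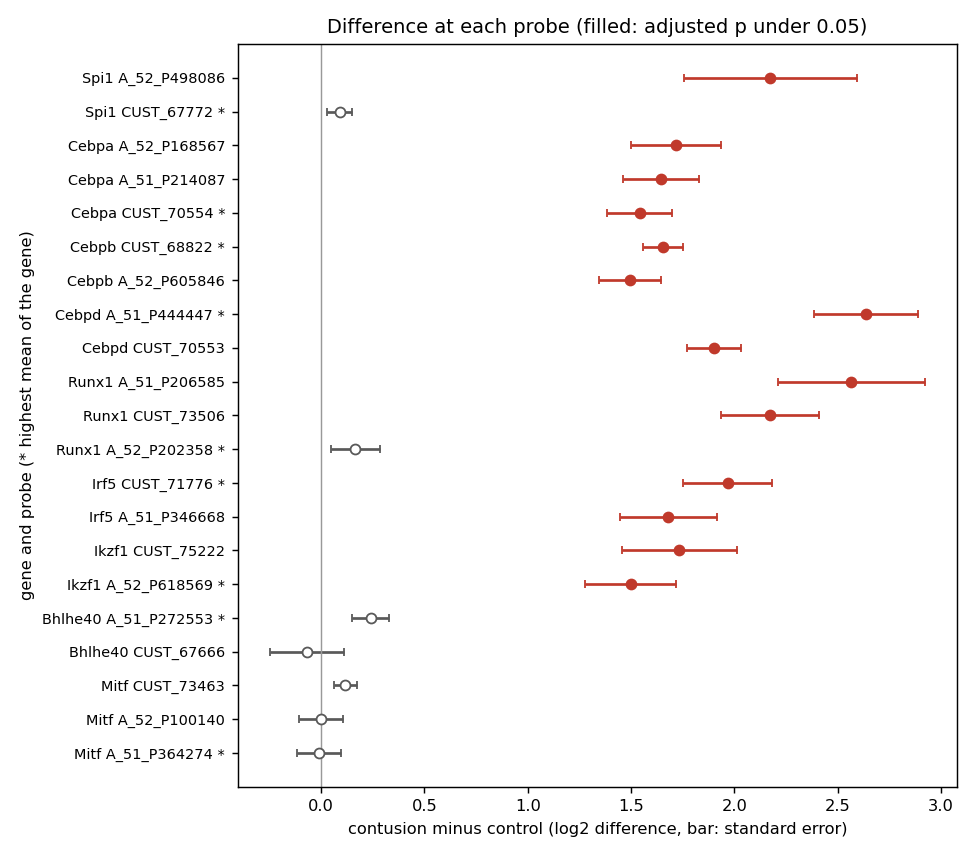
Difference at each of the 21 probes, contusion minus control on the log2 scale, with limma's standard error as the bar, filled points for an adjusted p under 0.05 and an asterisk for the probe with the highest mean of its gene. The filled points run from 1.49 to 2.64, and the brightest probes of Spi1 and Runx1 sit at 0.09 and 0.17 beside called probes of the same genes.

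Of 14890 mRNA genes with at least 2 probes tested, 5270 had a probe called higher by any amount, and in 1090 of these (20.7%) the brightest probe was not called higher. A probe called higher by at least 2-fold was found in 1627 genes, and in 97 of these (5.96%) the brightest probe was not called. Spi1 and Runx1 were among those 97, since the brightest probe of each had a difference near 0. What sets the probes of Spi1, or of Runx1, apart was not tested.

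Within the control group the called probes had a common low array. Control 4 was the lowest control at 14 of the 14 probes called higher, against 44.6% of the 10894 mRNA probes called higher. Contusion 4 was the highest contusion array at 11 of the 14, against 34.8% of the same 10894 probes. Control 4 was also the lowest in the mean level of the 9 monocyte and macrophage markers, at -1.15, where the other controls lay between -0.12 and 1.01 and the contusion arrays between 3.53 and 3.82. The part of the markers' cells in the factors' values was not tested. Spinal cord was measured as bulk tissue, in which more myeloid cells and more RNA per cell cannot be told apart. With slide as a block, 14 of the 21 probes were called. All 14 were higher in contusion within slide 1 and within slide 2, which had to follow because their groups did not overlap. Within-slide differences, which set 1 array of one group against 3 of the other, were lower on slide 2 than on slide 1 at all 14, for instance 1.05 on slide 2 and 1.77 on slide 1 for the custom probe of Cebpa, and 1.71 and 2.06 for that of Irf5. Control 4 was on slide 1 and control 1 was the only control on slide 2, and slide was not tested apart from this.

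Relatives of the 9 factors showed which parts of each family moved, with 1 probe, the brightest, for each gene. Beside the counts of this and the next paragraph, 25.8% of all mRNAs were called higher and 25.4% lower. Of 8 ETS factors beside Spi1, 5 rose, with a list median of 0.66 beside -0.002 for all mRNAs. Fli1, an endothelial and blood cell factor, had levels of 2.46, 2.15, 2.51 and 2.49 in contusion, against 0.81, 0.74, 1.26 and 0.54 in control, a difference of 1.57 ± 0.16 (adjusted p = 0.000244). Ets1 (1.03), Elf1 (0.91), Elf4 (0.68) and Etv6 (0.64) were also called, Elf4 with overlapping groups and not with slide as a block (adjusted p = 0.1). The closest relatives of PU.1, Spib and Spic, gave 0.14 ± 0.55 and 0.56 ± 0.62 and were not called.

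In the other families the counts were mixed. Both Cebpg (0.41 ± 0.09) and Ddit3 (0.89 ± 0.12), a C/EBP-type factor of the stress response, rose, and Cebpe of granulocytes gave 0.71 ± 0.67 and was not called. The RUNX partner Cbfb rose by 0.68 ± 0.07 (adjusted p = 0.000317), as did Runx2 by 1.00 ± 0.09. Runx1t1, a corepressor gene, fell by 0.68 ± 0.11 (adjusted p = 0.00172; log2 difference -0.68). Runx3, a lymphocyte and dendritic cell factor, gave 0.22 ± 0.23 at its brightest probe and 1.44 (adjusted p = 0.0036) with the mean of its probes. Of 8 other interferon regulatory factors, 5 rose: Irf8, the microglia and monocyte factor, by 1.70 ± 0.26, Irf9 by 0.87, Irf1 by 0.79, and Irf2 and Irf3 by 0.28 each. Averaged over its probes, Irf3 was not called (adjusted p = 0.0765). None of the 4 other Ikaros genes was called (0 of 4 by limma, 0 of 4 at an unadjusted p under 0.05, and 1 of 4 with slide as a block). Ikzf2, which is paired with Ikzf1 below, gave 0.12 ± 0.07. Bhlhe41, the paralog of Bhlhe40, gave 0.11 ± 0.09.

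Mitf and its 3 MiT-family relatives split. Tfec, a relative that is largely restricted to macrophages and their kin, had levels of -1.56, -1.49, -1.18 and -1.36 in contusion, against -3.76, -5.27, -3.93 and -5.54 in control. All 4 contusion arrays and 3 of the 4 control arrays measured it above background, the groups did not overlap, and the difference was 3.23 ± 0.40 (adjusted p = 0.000521). Tfe3 at 0.19 ± 0.08 (adjusted p = 0.1) and Tfeb at -0.05 ± 0.11 (adjusted p = 0.758) were not called. The mean of its probes gave Tfe3 a difference of 0.29, which was called (adjusted p = 0.0094).

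Whether 2 relatives differed in response was tested for 11 pairs, as the per-array difference of their levels, in an exact two-sided permutation test. The response of Cebpd was above that of Cebpa by 1.09 ± 0.21 and above that of Cebpb by 0.98 ± 0.21. Ikzf1 was above Ikzf2 by 1.38 ± 0.30, and Mitf was below Tfec, at -3.24 ± 0.49. With the brightest probes, Spi1 was below Fli1 at -1.48 ± 0.18 and Runx1 below Cbfb at -0.52 ± 0.16. Each of these 6 pairs had an exact p of 0.0286, the smallest that 70 regroupings allow, and an adjusted p of 0.0524 over the 11 pairs. So 0 of 11 passed the threshold and 6 had an unadjusted p under 0.05. With that smallest p, no pair could pass unless most of the 11 reached it. The mean of the probes turned Runx1 against Cbfb to 0.98 and moved Spi1 against Fli1 to -0.43. Cebpb and Cebpa differed in response by 0.11 ± 0.13 (exact permutation p = 0.543), Irf5 and Irf8 by 0.27 ± 0.08 (exact permutation p = 0.0571), and Mitf and Tfeb by 0.04 ± 0.06 (exact permutation p = 0.514).

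Among 22 other factors used by myeloid or blood cells, 11 rose and 0 fell, where 25.8% of all mRNAs were called higher. The list median was 0.41. With slide as a block 12 were called higher, but Gata2, 1 of the 11, was not (adjusted p = 0.118). With the mean of their probes, Klf2 (0.55, adjusted p = 0.00633), Maf (0.40, adjusted p = 0.0394) and Bcl6 (0.19, adjusted p = 0.0451) were also called. Lyl1, a blood cell helix-loop-helix factor, rose by 1.38 ± 0.22 (adjusted p = 0.00165), with levels of 3.49, 3.37, 3.55 and 3.63 in contusion and 2.31, 2.0, 2.68 and 1.53 in control. Nfil3 rose by 0.72 ± 0.08 and Lmo2 by 0.65 ± 0.10. Sall1, a factor of microglial identity, gave 0.22 ± 0.09 (adjusted p = 0.0765), and Myb, a progenitor factor, -0.04 ± 0.11 (adjusted p = 0.788), neither called.

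**Figure D3:**
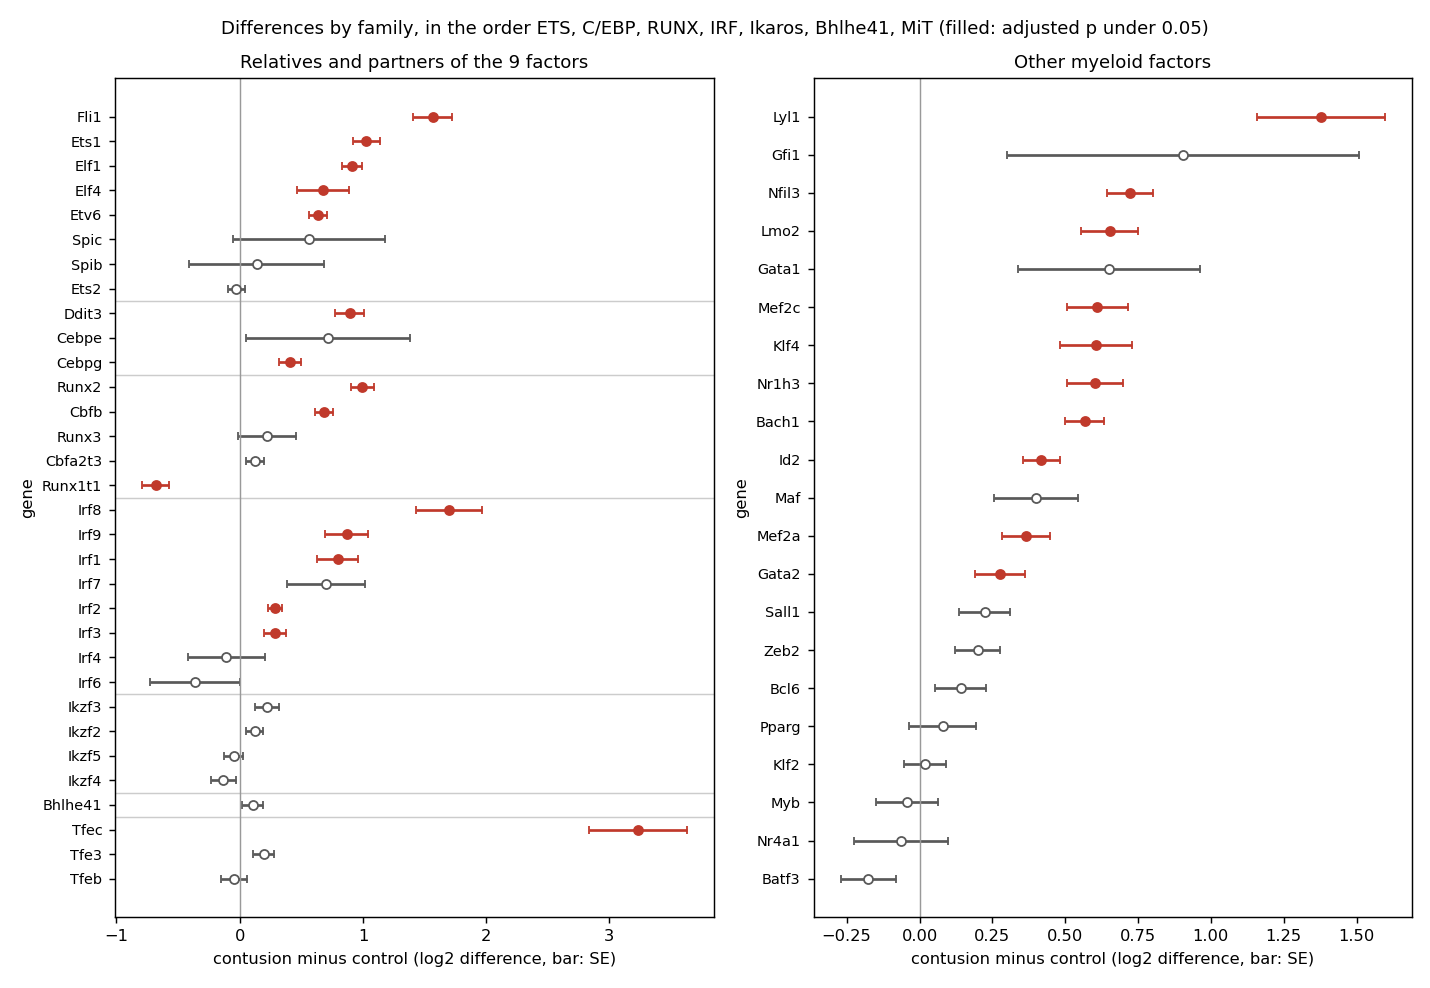
Differences of relatives and partners of the 9 factors (left) and of 21 other myeloid factors (right), contusion minus control on the log2 scale with limma's standard error, 1 probe for each gene and filled points for an adjusted p under 0.05. Tfec at 3.23 stands above the other relatives plotted, Runx1t1 at -0.68 is the only filled point below 0, and the 4 Ikaros relatives are all open.

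Of 28 genes that PU.1 and C/EBP factors are known to control in myeloid cells, 26 were called higher and 0 lower, with a median of 1.84. Over all mRNAs, 25.8% were called higher and 25.4% lower. The list was chosen with earlier results of these data known, and the part of myeloid cell numbers in its values was not tested. Cd68, a lysosomal protein of macrophages, had levels of 5.15, 4.97, 5.05 and 5.29 in contusion, against 2.59, 1.74, 1.82 and 0.39 in control, a difference of 3.48 ± 0.40 (adjusted p = 0.000389). Lcn2 (3.26 ± 0.52), an iron-scavenging protein that astrocytes also make, Lyz2 (2.90 ± 0.44), the lysozyme of macrophages and neutrophils, and the cytokine receptor Csf2rb (2.65 ± 0.41) followed. The 2 genes not called were the granule genes Mpo (0.23 ± 0.72) and Elane (0.54 ± 0.65), which promyelocytes transcribe.

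Of 6 cytokine genes known as IRF5 targets, 5 were bright enough to test and 4 were called higher, where 25.8% of all mRNAs were. Tnf rose by 3.47 ± 0.32 (adjusted p = 0.000189), with levels of 0.48, 0.44, 0.61 and 0.56 in contusion and -2.27, -3.39, -2.40 and -3.76 in control. Il6 rose by 2.31 ± 0.33, Ccl5 by 1.25 ± 0.30 and Il23a by 0.55 ± 0.16 (adjusted p = 0.0282), but Il23a was not called with slide as a block (adjusted p = 0.11) or with its probes averaged (adjusted p = 0.0639), nor was Ccl5 without contusions 1 and 2. Il12a gave 0.27 ± 0.18 and was not called, and Il12b did not pass the filter on dim probes.

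Of 7 genes that MITF or TFE factors drive in macrophages and osteoclasts, 4 rose, where 25.8% of all mRNAs did, and Mitf itself was not called. Gpnmb, a membrane glycoprotein of lipid-laden macrophages, had levels of 5.01, 4.66, 4.68 and 5.03 in contusion, against 1.61, 0.50, -0.51 and -2.33 in control, a difference of 5.02 ± 0.72 (adjusted p = 0.00102). The controls spread widely, and none reached the lowest contusion array. Atp6v0d2, a proton pump subunit above background on 4 contusion and 3 control arrays, rose by 3.72 ± 0.30, the acid phosphatase gene Acp5 by 2.56 ± 0.43 and the chloride channel gene Clcn7 by 0.33 ± 0.08, which was not called without controls 1 and 3 or without contusions 1 and 2. Ctsk (0.20 ± 0.13), Oscar (-0.08 ± 0.06) and Ostm1 (0.03 ± 0.07) were not called. Of 7 melanocyte targets of MITF, 4 were tested: Dct rose by 0.88 ± 0.16, Pmel rose by 0.58 ± 0.09, and Slc45a2 gave -0.07 ± 0.14. The fourth, Tyrp1, was called at least 1.12-fold lower in contusion, where it was not well above background on any array. It passed the filter on dim probes through the control arrays alone, so its call is not independent of that filter. With slide as a block Tyrp1 was not called (adjusted p = 0.051).

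Cell type marker lists differed in direction, and the part of these cell types in the factors' differences was not tested. Beside the counts below, 25.8% of all mRNAs were called higher and 25.4% lower. All 9 monocyte and macrophage markers rose, with a median of 3.36, among them Cd5l (5.81 ± 0.90), Arg1 (5.19 ± 0.90), Msr1 (5.15 ± 0.57) and Lgals3 (4.38 ± 0.52). Of 9 microglia markers 7 rose, with a median of 1.16, and the array means of the list lay between 3.72 and 4.04 in contusion and between 2.37 and 3.19 in control. Of 10 neutrophil markers 3 rose and 1 fell, and their array means overlapped, between 0.50 and 2.08 in contusion and between -0.61 and 1.88 in control, where controls 1 and 3 were high. With slide as a block 1 of the 3, Ly6g, was still called, and Mmp8 (adjusted p = 0.0899) and Cxcr2 (adjusted p = 0.112) were not. The neutrophil marker that fell, Mmp9, was not called when its probes were averaged (adjusted p = 0.208). Without those 2 controls 15 of the 21 factor probes were called. Of 9 lymphocyte markers 1 rose, and Cd3d and Nkg7 were also called with the mean of their probes (0.67 and 0.90). Of 5 mast cell markers 0 rose and Kit fell by 0.47 ± 0.09 on the log2 scale. Kit was the brightest of them, with a mean control level of 2.46 beside 0.79 for Tpsb2, -3.27 for Fcer1a, -4.31 for Mcpt4 and -5.55 for Cpa3. Which cells gave the Kit signal was not tested. Of 7 red cell and platelet markers 4 rose, 2 of them with slide as a block. Every marker of these lists was well above background on at least 1 array. All 5 neuron markers fell, and they stayed bright in both groups, at array means of 5.00 to 5.17 in contusion and 5.85 to 6.00 in control. Of 5 astrocyte markers 3 rose, Aldh1l1 by 0.88 ± 0.08, Aqp4 by 0.47 ± 0.10 and the filament gene Gfap by 0.43 ± 0.14, and the glutamate transporter gene Slc1a2 fell by 0.67 ± 0.09 on the log2 scale. Gfap was not called with slide as a block (adjusted p = 0.12). The array means of the astrocyte list lay between 7.001 and 7.080 in contusion and between 6.68 and 6.98 in control. Of 5 oligodendrocyte markers 1 fell, Opalin, by 0.48 ± 0.11 on the log2 scale, and the array means of that list lay between 7.27 and 7.40 in contusion and between 7.40 and 7.73 in control, where they overlapped. Muscle markers were high on contusions 1 and 2, at list means of 4.03 and 2.25, and without those 2 arrays 14 of the 21 probes were called.

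**Figure D4:**
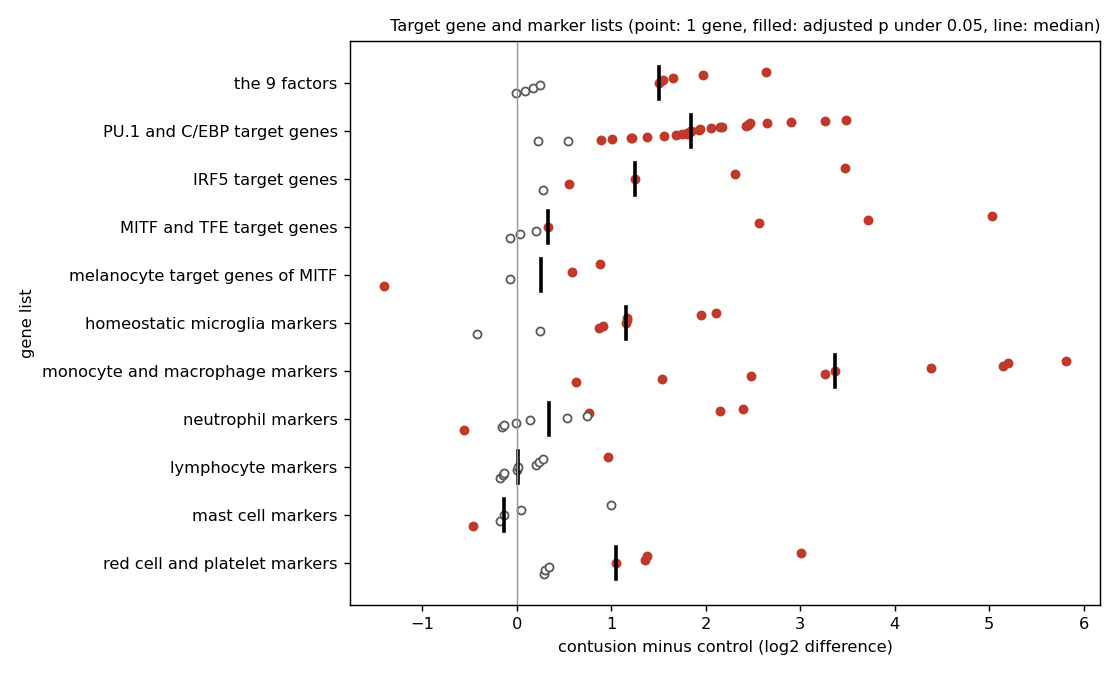
Differences of target gene and marker lists, contusion minus control on the log2 scale, with 1 point for each gene tested, filled for an adjusted p under 0.05, and a line at each list's median. The medians are 1.84 for PU.1 and C/EBP targets, 3.36 for monocyte and macrophage markers and 0.01 for lymphocyte markers; the filled melanocyte gene below 0 is Tyrp1, which was not well above background in contusion.

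Circular RNAs were probed at 3 of the loci, and the part of linear transcripts in their values was not tested. Their probes are named by position, the build of which is not given in the sources used here; with the positions taken as GRCm38, 98.2% of all circular RNAs on the arrays lay inside a RefSeq gene, against 40.8% after a shift of 1000000 bases. Placed in this way, 19 lay in member genes on the gene's strand, 13 in Runx1, 5 in Ikzf1 and 1 in Bhlhe40. Of these, 17 were bright enough to test, and 13 rose and 0 fell, where 16.2% of all 35615 circular RNAs tested were called higher. With slide as a block 10 of the 13 were called. With probes required to be well above background on all 8 arrays, 10 of the 13 were called. Several of these circular RNAs share a splice site, so they are not independent readings.

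At Runx1, 8 of 11 rose, with a median difference of 0.78. Among the 8, the one at chr16:92644154-92682847 had overlapping groups and was well above background on 4 contusion arrays and 1 control array. The circular RNA at chr16:92688976-92695737 had levels of -2.01, -2.24, -2.0 and -1.66 in contusion, against -3.11, -4.20, -3.76 and -5.31 in control, a difference of 2.12 ± 0.41 (adjusted p = 0.00433). Control 4 was again lowest and the groups did not overlap. The one at chr16:92613599-92644345 was well above background on 4 contusion and 0 control arrays, and was at least 3.98-fold higher in contusion. It passed the filter on dim probes through the contusion arrays alone, so its call is not independent of that filter. The one at chr16:92644154-92689132, whose probe shares 48 bases with the uncalled Runx1 catalogue probe, had levels of -2.14, -1.92, -2.01 and -2.04 in contusion, against -2.48, -2.96, -2.88 and -2.91 in control. It rose by 0.78 ± 0.11 (adjusted p = 0.0011), with control 1 the highest control in it and at that mRNA probe.

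At Ikzf1, 4 of 5 circular RNAs rose, by 1.5 to 1.67, beside the 1.5 and 1.73 of its mRNA probes. Those at chr11:11700205-11707904 and chr11:11700204-11707904 start 1 base apart and gave 1.67 ± 0.20 and 1.5 ± 0.13. The fifth, at chr11:11699334-11707904, had levels of -0.11, -0.12, 0.06 and -0.23 in contusion, against 0.06, -0.08, -0.10 and -0.20 in control. It shares its far end with the pair before it and gave -0.02 ± 0.09 (adjusted p = 0.893). The single circular RNA of Bhlhe40 at chr6:108660788-108661612 had levels of -0.40, -0.19, -0.19 and -0.14 in contusion, against -0.67, -0.64, -0.46 and -0.41 in control, and rose by 0.32 ± 0.09 (adjusted p = 0.0246), where the mRNA probes of the gene were not called; with slide as a block its difference was 0.30 and was not called.

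**Figure D5:**
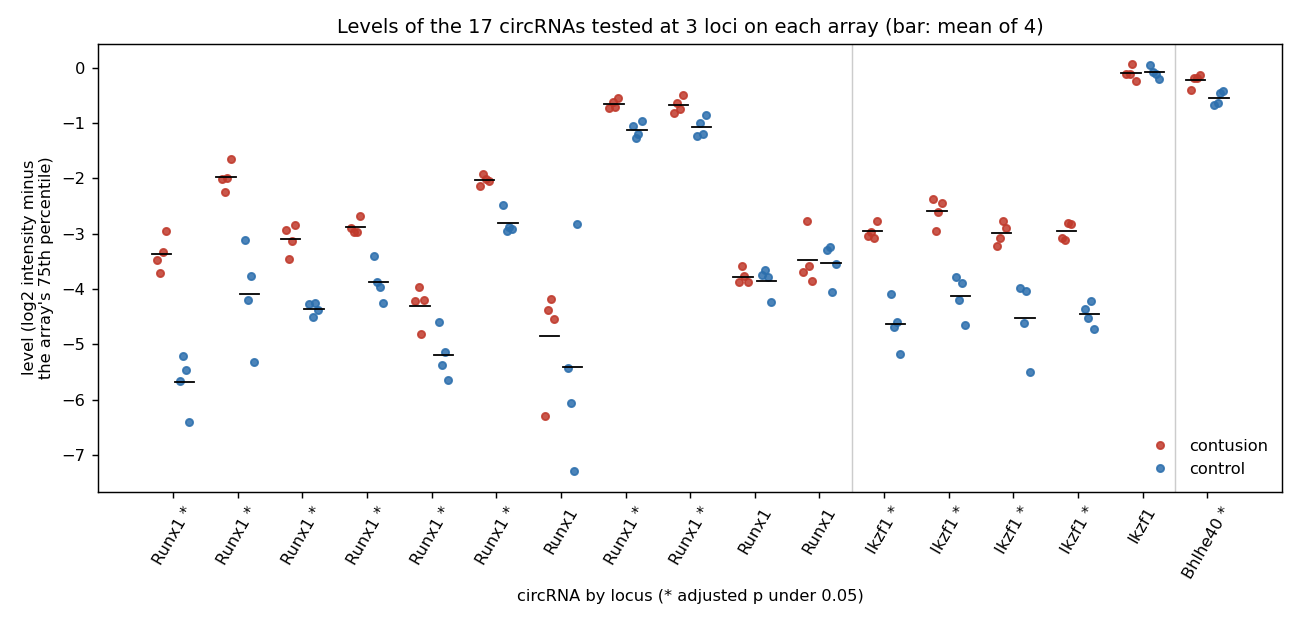
Levels of the 17 circular RNAs tested at the Runx1, Ikzf1 and Bhlhe40 loci, as log2 intensity minus the array's 75th percentile, 4 contusion arrays in red and 4 control arrays in blue, with a bar at each mean and an asterisk for an adjusted p under 0.05. The starred ones number 8 at Runx1, 4 at Ikzf1 and 1 at Bhlhe40, and the leftmost Runx1 one was not well above background on any control array.

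The 250 bases before the transcription start, taken from RefSeq (GRCm38.p6), were at hand for 10 start sites of 6 of the genes, and were searched on both strands for 5 short motifs. GAGGAA, the core of a PU.1 site, was found in 1 of the 10 windows, where 23.3% of 32851 windows of all genes hold it. TTGCNNAA (C/EBP) was found in 1, against 9.56%, TGTGGT (RUNX) in 1, against 14.0%, CACGTG (E-box, read by MITF and BHLHE40) in 1, against 6.02%, and an IRF motif, GAAA repeated after any 2 bases, in 0, against 2.98%. The 2 Runx1 windows are shown because each of the gene's start sites holds a different motif, in capitals: the distal window at chr16:92826075-92826324 on the minus strand has the E-box letters at position -71 from the start, and the proximal one at chr16:92697330-92697579 on the minus strand has the PU.1 letters on its reverse strand, at position -46.
Runx1 distal window: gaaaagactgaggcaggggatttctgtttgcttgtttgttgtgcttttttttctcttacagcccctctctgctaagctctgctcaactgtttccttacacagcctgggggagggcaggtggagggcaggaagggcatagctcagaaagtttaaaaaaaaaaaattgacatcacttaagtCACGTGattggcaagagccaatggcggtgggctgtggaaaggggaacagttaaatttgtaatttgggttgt
Runx1 proximal window: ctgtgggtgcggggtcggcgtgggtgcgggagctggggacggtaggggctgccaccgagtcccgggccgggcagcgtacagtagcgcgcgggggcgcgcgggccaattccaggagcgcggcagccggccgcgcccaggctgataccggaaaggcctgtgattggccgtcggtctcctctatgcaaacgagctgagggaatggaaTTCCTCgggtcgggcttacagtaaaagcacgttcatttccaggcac
The C/EBP and RUNX letters were both in the window of the first of 3 Mitf start sites, and no motif was found in the windows of Cebpa, Cebpb, Irf5 or Ikzf1.

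The genes whose pattern over the 8 arrays was nearest to each factor, by root mean square difference after each gene's mean was subtracted, came from 18177 mRNAs with a value on every array. Only the mean over all arrays was subtracted, so the difference between the groups is part of this distance. The 3 genes nearest to Cebpd had differences of 2.61, 2.72 and 2.62, beside 2.64 for Cebpd. Nearest to Cebpb were Cmklr1 (0.042), Soat1 and Eef1akmt4, to Irf5 Apobec1 (0.068), Clec5a and Inpp5d, and to Ikzf1 Sting1 (0.054), Gmfg and Bin2. Cebpa was nearest to Ang4 (0.079), Serpina3i and Angpt4, and Cebpd to Ugt1a6b (0.11), Afp and Rab32. With their brightest, uncalled probes, Spi1 was nearest to Acin1, Trafd1 and Wbp4, and Runx1 to Prdm11 and Dedd. Bhlhe40 was nearest to Elovl1, Eif5b and Gsn, and Mitf to Qpct, Tmem26 and Eif3k. Among the factors themselves, Cebpa and Cebpb were the nearest pair of the 5 called genes, at 0.17, and Cebpd was farthest from Cebpa, at 0.61.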

How the data were processed

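The values were spot intensities of 8 arrays, which the authors deposited as Agilent Feature Extraction output, background-subtracted and detrended within each array, per the file headers. Version 10.7 and limma are named in the submitters' processing notes, and 12.0.3.1 stands in the headers' algorithm fields. The authors' series table holds log2 values and served as an alternative. Flags (0 or 1, other) for signal well above background came from the same deposited files. Levels were log2 intensity minus each array's 75th percentile; control and outlier spots were left out, and a probe was kept if well above background on 4 or more of 8 arrays. limma 3.58.1 (R 4.3.3) compared the groups with a two-sided test and no other term, and p-values were adjusted by Benjamini-Hochberg over every feature (for probe values, over 112202 probes). The fit was tested on simulated data for 89137 features. It called 67% of 100 changes of log2 size 1 and 92% of 100 of size 2, with 13 false calls. No other feature was changed in the simulation, while 34397 of 89136 features were called in the data. The adjusted p depends on the share that changes, so these rates do not carry over to the data. A gene was represented by its probe of highest mean. The number of arrays, 4 per group, limits the precision. Pairs of relatives and of probes were compared by exact permutation over arrays; the probe pairs and the circular RNAs were added after values had been seen. Genes named beyond the 9 were the relatives in the pairs, up to 4 called genes of each list with the largest difference and no overlap plus any against the list's direction, and the 3 nearest mRNAs of each factor. Spib, Spic, Elf4, Irf3, Cebpe, Klf2, Maf, Bcl6, Gata2, Sall1, Myb, the uncalled targets and Spidr were named after their values were seen. Values of 2 genes named by this rule are not reported here. The members and lists were chosen with earlier results of these data known. The design text gives 1 sample per mouse. Alternatives covered background correction, the authors' values, scaling, filters, probe choice, slide, replicate number, each array left out, and the groups of arrays high in neutrophil or muscle genes.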

Additional observations from a re-analysis of the deposited data

Results flagged for a closer look

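In 194 groups of 4 arrays examined, 7 had an array far from the other 3 by Dixon's criterion at its 95% critical value, where chance gives about 1 in 20. At the catalogue probe of Cebpd, control 4 had a level of 2.43. Fli1 had a level of 2.15 on contusion 2, and Ikzf2 one of 0.73 on control 4. Atp6v0d2 had a level of -4.02 on control 1, Olfml3 one of 6.58 on contusion 1, and Opalin one of 5.46 on control 1. The Runx1 circular RNA at chr16:92644154-92689132 had a level of -2.48 on control 1, the control array that was also highest at the Runx1 mRNA probe sharing 48 bases with it.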

How the results depend on the processing

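The count of called member probes was 14 as reported, and 14 member probes were called under normexp with quantile normalization, the authors' log2 values, median scaling, both filters and slide as a block. Within slide 1 (1 contusion array against 3 controls) 7 probes, 3 member genes and 14 relatives and targets were called, against 14, 5 and 64 with all arrays; within slide 2, 33 relatives and targets were called; with contusion 1 alone against the 4 controls, 9 probes and 15 relatives and targets were called. These settings use fewer arrays. Leaving out 1 array gave 14 to 15 probes, 5 to 6 genes and 59 to 66 relatives and targets. Of the pairs it gave 0 to 7, the 7 without control 4. There, Irf5 against Irf8 joined the 6 pairs at the smallest p of the exact permutation test. This moved their adjusted p from 0.0524 to 0.0449, so the count of 7 reflects the adjustment step. Replicate numbers do not pair the arrays (correlations of same-numbered deviations of -0.302, -0.006, 0 and -0.046); with the replicate block 14 probes, 5 genes and 60 relatives and targets were called. Differences that were not called changed sign as follows, and the cause was not tested. Within slide 2 the brightest probe gave -0.02 for Spi1 and -0.17 for Runx1, and Tfe3 gave -0.00857. The brightest Mitf probe gave 0.087 with normexp and quantile normalization, 0.104 with slide as a block, 0.186 and 0.022 within slides 1 and 2, 0.00824 without contusions 1 and 2, 0.223 with contusion 1 alone, and -0.088 to 0.080 with 1 array left out, and the mean of the Mitf probes 0.036. The second Mitf catalogue probe gave -0.019 with median scaling, -0.067 with slide as a block, -0.195 within slide 1, -0.197 with contusion 1 alone and -0.085 to 0.066 with 1 array left out. The custom Bhlhe40 probe gave 0.075 with slide as a block, 0.488 within slide 2 and -0.241 to 0.035 with 1 array left out. Tfeb gave 0.045 with normexp and quantile normalization, 0.018 with the mean of probes, 0.068 with slide as a block, 0.173 within slide 1, 0.205 with contusion 1 alone and -0.133 to 0.020 with 1 array left out. The Ikzf1 circular RNA with a difference of -0.02 gave 0.019 within slide 1, 0.040 without controls 1 and 3 and -0.071 to 0.029 with 1 array left out. With the mean of probes, Cebpb against Cebpa gave -0.060, Runx1 against Cbfb 0.977 and Irf5 against Irf8 -0.179; Cebpb against Cebpa gave -0.012 to 0.172 with 1 array left out.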
